A study of Mus musculus with 10 samples.

Results

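The genes described here are 9 factors of the primed epiblast, namely Pou3f1, Zic2, Zic5, Utf1, Dnmt3a, Dnmt3b, Lin28a, Lin28b and Sall2, among 21900 protein-coding genes of the mouse annotation. They were chosen by name, with earlier results of these data known. A peak of the transcription factor OTX2 was assigned to a gene when its centre lay inside the gene or within 50 kb of either end on mm10, which gave 13 of 6319 peaks in epiblast stem cells (EpiSCs) and 49 of 42711 in definitive endoderm (DE). The authors' deposited tables also name a nearest gene for each peak, and a member was named in 5 EpiSC rows and 12 DE rows.

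Binding was measured by CUT&RUN, in which an antibody directs a nuclease to its target so that the bound DNA is cut out and sequenced. Both states came from the mouse line 7H OTX2-dTAG-EGFP on a BL6/129 hybrid strain, which carries a tagged OTX2 that anti-HA antibody recognises, and 2 HA samples of 500000 cells were made per state. EpiSC medium was N2B27 supplemented with Activin A at 20 ng/ml, FGF2 at 12.5 ng/ml and NVP at 175 nM. Differentiation to DE in CDM used Activin A at 40 ng/ml plus CHIR at 3 µM during the first 16 h and Activin A at 100 ng/ml plus LDN at 100 nM during the following 24 h, before live cells were sorted. The tagged cells are 1 line, so the values do not show how lines vary. Controls were 3 IgG samples of tagged EpiSCs and 1 HA sample of the parental line 5.8 taken to DE, on the same hybrid strain and in the same media; 1 IgG sample each of tagged and parental DE was not used here. Each state has 1 deposited HA list for both replicates, with positions and no score, so no value here has a replicate spread, no test between the states was possible, and read depth is unknown. Peak lists carry no expression values, so the labelled cell types could not be checked against markers.

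Primed pluripotency is the state of the epiblast after implantation, and EpiSCs are its cultured form. OTX2 is a homeodomain factor that is known to promote the passage from naive to primed pluripotency and later acts in the anterior endoderm and forebrain. Pou3f1 (also called Oct6), Zic2, Zic5 and Sall2 encode DNA-binding factors, Utf1 a chromatin-associated protein of pluripotent cells, Dnmt3a and Dnmt3b the de novo DNA methyltransferases, and Lin28a and Lin28b RNA-binding proteins that block maturation of let-7 microRNAs.

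The promoter of Lin28a was the only one of the members' tabulated promoters that overlapped an OTX2 peak, which was an EpiSC peak. A DE peak began 194 bp from that peak, so the site counts as shared when gaps under 500 bp are allowed. RefSeq sequences (GRCm38.p6, from 250 bases before to 50 after each transcript start) were available for 10 starts of 7 members, and 1 of the 10 overlapped an EpiSC peak and 0 overlapped a DE peak. Over all 32851 tabulated promoters 6.33% overlapped an EpiSC peak and 18.3% a DE peak, so 1 in 10 is not set apart from the EpiSC share. Pou3f1 and Zic2 were not in the promoter table. The Lin28a sequence is shown because the EpiSC peak covers most of it; it lies at chr4:134018817-134019066 on the minus strand, ends at the base before the transcript start and reads 5′ to 3′ towards the gene. Capitals mark the 205 bases inside the EpiSC peak of 134018862 to 134019067. The second sequence, at chr7:139949748-139950047 on the plus strand, is the start of the non-coding gene Gm16201 downstream of Utf1, shown because it holds the peak of the Utf1 locus that both states have. Capitals there mark the 176 bases of the EpiSC peak.
Lin28a: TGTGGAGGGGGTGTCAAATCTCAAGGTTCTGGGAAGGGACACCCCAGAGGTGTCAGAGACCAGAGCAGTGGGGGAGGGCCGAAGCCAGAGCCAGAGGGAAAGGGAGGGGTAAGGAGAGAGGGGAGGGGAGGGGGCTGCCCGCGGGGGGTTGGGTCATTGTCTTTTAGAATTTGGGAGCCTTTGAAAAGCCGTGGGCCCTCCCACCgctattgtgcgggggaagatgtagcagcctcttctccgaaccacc
Gm16201: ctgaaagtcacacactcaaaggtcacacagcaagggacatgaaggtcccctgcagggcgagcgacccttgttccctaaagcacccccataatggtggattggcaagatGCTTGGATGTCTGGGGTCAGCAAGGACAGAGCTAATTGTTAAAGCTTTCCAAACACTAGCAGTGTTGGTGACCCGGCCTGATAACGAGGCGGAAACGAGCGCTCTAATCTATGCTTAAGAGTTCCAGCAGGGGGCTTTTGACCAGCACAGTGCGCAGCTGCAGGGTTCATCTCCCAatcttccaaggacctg

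The letters TAATCC, the core site known for OTX2, were searched on both strands in the tabulated promoters. None of the 10 promoters of 7 members held them, and 7.06% of all 32851 promoters did. Of promoters overlapped by an EpiSC peak 9.43% held TAATCC, of those overlapped by a DE peak 7.98%, and of those overlapped by neither 6.86%. The shorter TAATC, which lies within TAATCC and was added after seeing the data, occurred in 2 of the 10, the promoters of Lin28b and of 1 start of Sall2, and in 22% of all promoters. For TAATC the promoters with a peak were lower than those without, at 20.2% of promoters overlapped by an EpiSC peak, 18.3% of those overlapped by a DE peak and 22.9% of those overlapped by neither. The Lin28b and Sall2 promoters that held TAATC did not overlap a peak of either state.

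All 9 genes had a DE peak within 50 kb and 6 had an EpiSC peak. Over all protein-coding genes the shares were 82.8% and 40.8%, so a DE peak near a gene was common. The EpiSC list had 3 peaks each at Utf1, Pou3f1 and Dnmt3b, 2 at Lin28a, 1 each at Zic5 and Sall2, and none at Dnmt3a, Zic2 and Lin28b. In DE the order was different, with 9 peaks each at Utf1 and Dnmt3a, 8 at Pou3f1 and Lin28a, 6 at Dnmt3b, 4 at Zic2 and Zic5, 3 at Sall2 and 2 at Lin28b. Utf1, Dnmt3a, Pou3f1 and Lin28a, 4 of the 9, thus had 8 or more DE peaks, a number reached by 13.4% of all genes. That cut is the lowest count of these 4 and was not planned, so the contrast is descriptive only. Dnmt3a reached it with a window of 212.9 kb, and 23.4% of genes had as many DE peaks per length. At every member the DE list held more peaks than the EpiSC list, as it did at 79.1% of protein-coding genes. Without replicates, neighbours in these orders cannot be told apart by their spread.

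**Figure D1:**
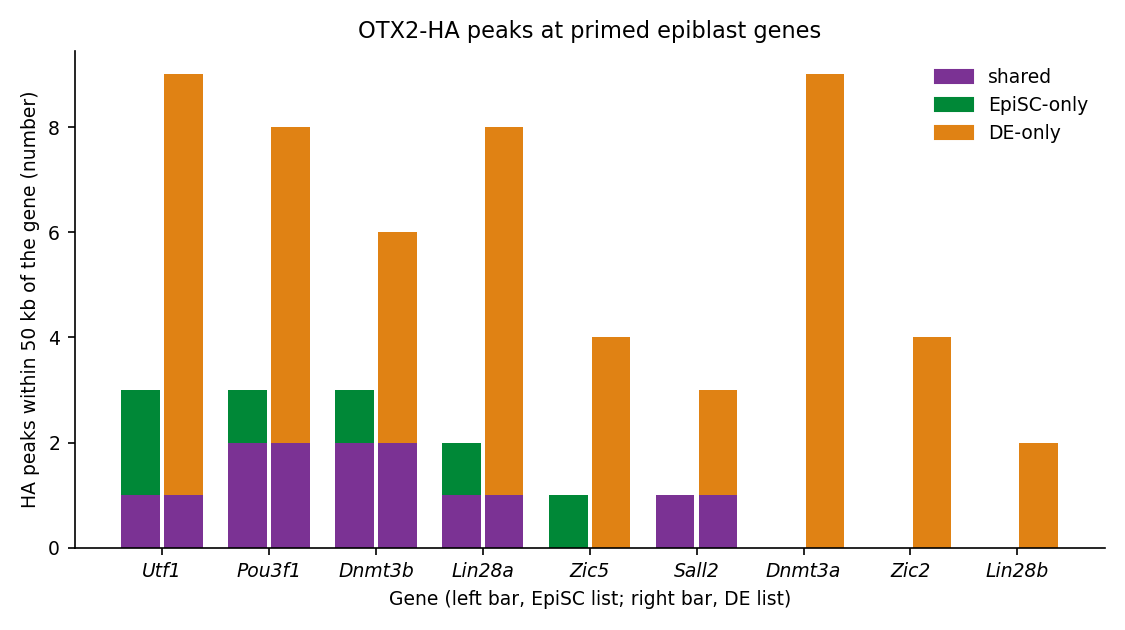
Number of HA peaks within 50 kb of each gene, with the EpiSC list on the left and the DE list on the right of each pair; colours give peaks that overlap a peak of the other state (shared) and those that do not. Utf1, Pou3f1 and Dnmt3b have 3 EpiSC peaks each, while Dnmt3a, Zic2 and Lin28b have DE peaks only.

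The lists themselves differ in length. Over the 9 genes the DE list had 3.77 times as many peaks, against 6.76 times for the whole lists. These genes thus took 0.206% of the EpiSC list and 0.115% of the DE list. The whole lists are not limited to gene windows, so they are an unlike baseline for these values. A closer one is the number of pairs of a gene and a peak in its window. All protein-coding genes had 83473 such pairs in DE and 18511 in EpiSC, and the members had 53 and 13. The members are thus nearer to other genes than the ratio for the whole lists shows. When the DE list was limited to its 6319 widest peaks, as many as the EpiSC list holds, 8 DE peaks were left at the members against 13 in EpiSC, and the direction turned; this choice selects DE peaks by width and leaves the EpiSC list whole. Pou3f1, Zic2, Zic5, Utf1, Dnmt3a and Dnmt3b, 6 of the 9, had at least 1 of these wide DE peaks, against 34.7% of all protein-coding genes. In that comparison 5 members had more EpiSC peaks (Pou3f1, Utf1, Dnmt3b, Lin28a and Sall2), 3 had more DE peaks (Zic2, Zic5 and Dnmt3a), and Lin28b had neither. Of all protein-coding genes 27.8% had more EpiSC peaks and 14.5% more DE peaks by this count.

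**Figure D2:**
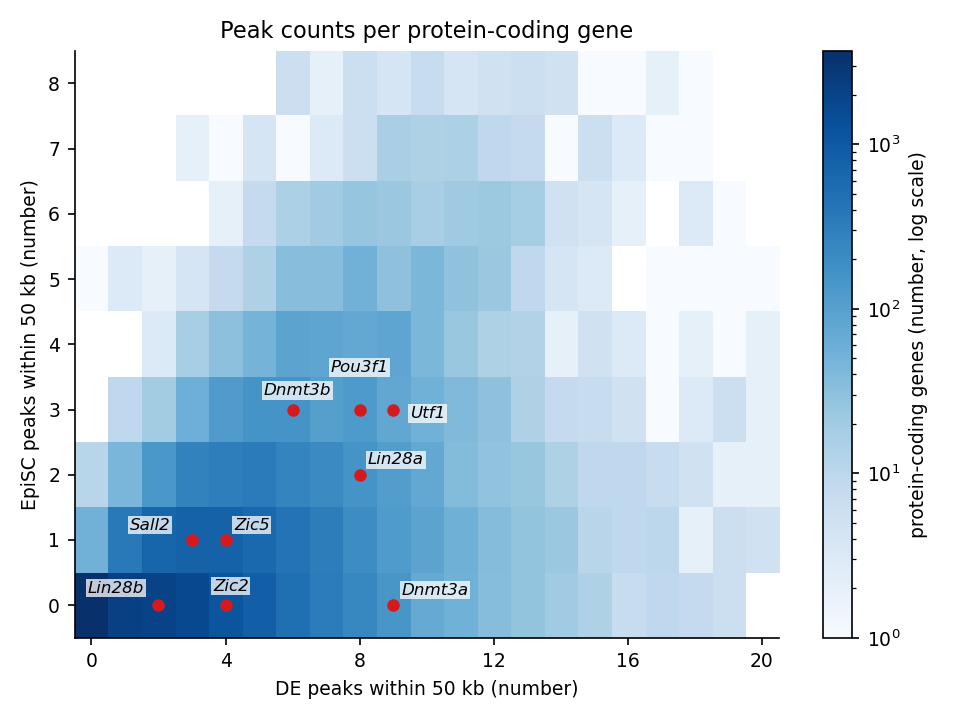
Each cell gives the number of protein-coding genes (log colour scale) with that many DE peaks (x) and EpiSC peaks (y) within 50 kb, up to 20 and 8; red points are the primed epiblast genes. Dnmt3a has 9 DE peaks and no EpiSC peak, and Utf1, Pou3f1 and Dnmt3b lie at 3 EpiSC peaks, a number that 10.3% of all genes reach.

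Sharing between the states was counted as an overlap of at least 1 bp. At the members 7 of 13 EpiSC peaks were shared (53.8%, 95% Wilson interval 29.1 to 76.8%), against 78.8% of the whole EpiSC list. Shared peaks were 7 of the 49 in DE (14.3%, 7.1 to 26.7%), against 11.7% of the whole DE list. The intervals cover counting error only, and peaks of 1 locus are not independent. Of the 5 EpiSC rows that name a member as nearest gene in the authors' deposited table, 1 was shared, at Pou3f1. At least 1 EpiSC-only peak lay near 5 of the 9 members (Pou3f1, Utf1, Dnmt3b, Lin28a and Zic5), and near 10.7% of all protein-coding genes. A shared EpiSC peak also lay near 5 members (37% of all genes), with Sall2 in place of Zic5.

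**Figure D3:**
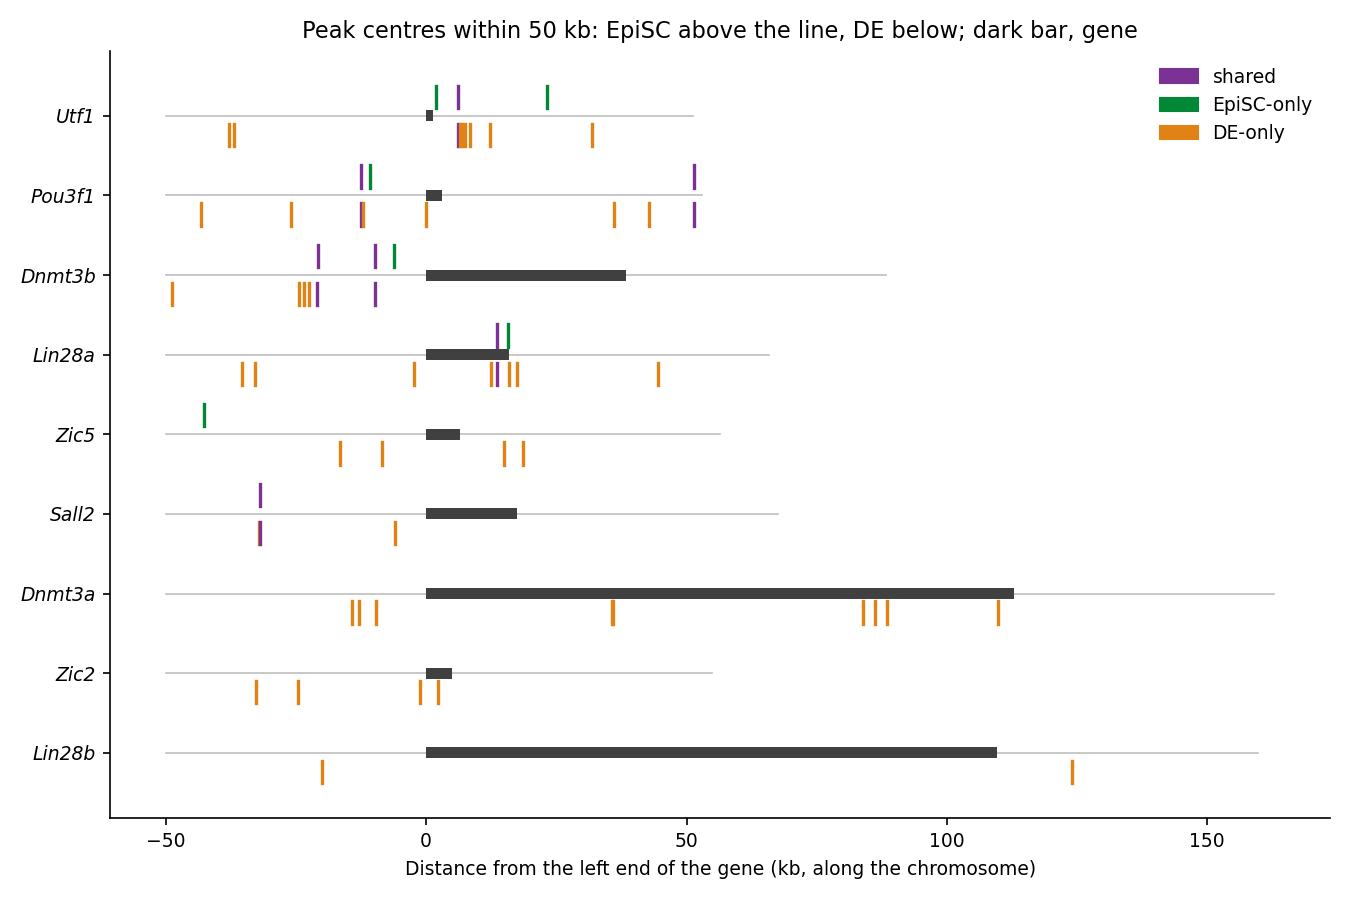
Centres of all peaks within 50 kb of each gene, placed by distance in kb from the left end of the gene along the chromosome, with EpiSC peaks above and DE peaks below each line and the gene as a dark bar. EpiSC peaks of Utf1, Pou3f1, Dnmt3b and Lin28a sit within 25 kb of the gene except for the shared peak 48.4 kb to the right of Pou3f1, and those of Zic5 and Sall2 lie farther out.

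Among the DNA-binding factors, Pou3f1 (chromosome 4, 124657646 to 124660655) had an EpiSC peak and a DE peak at the same place and an EpiSC-only peak beside it. The shared site lay 12551 bp to the left of the gene, at 124645051 to 124645139 in EpiSC (89 bp) and 124644993 to 124645221 in DE (229 bp), inside the gene model Gm2164. The EpiSC-only peak of 124 bp was at 124646716 to 124646839, 10869 bp from the gene and 1233 bp from the closest DE peak. In DE a narrow peak of 73 bp, at 124657502 to 124657574, had its centre 108 bp outside the left end of Pou3f1. The nearest EpiSC peak was 10662 bp from it, and the authors' deposited table assigns it to Gm27247, a synonym of Gm2164 in RefSeq. The third EpiSC peak, 362 bp wide, was shared and lay 48390 bp to the right, close to the 50 kb limit, where the authors' deposited table names Sf3a3. Another shared peak was just beyond the limit, at 54.1 kb.

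Zic2 and Zic5 lie 9725 bp apart on chromosome 14 (122475384 to 122480328 and 122459160 to 122465658), so their windows hold the same 4 DE peaks. The widest, 317 bp at 122477527 to 122477843, was inside Zic2, and one of 264 bp at 122474063 to 122474326 lay between the genes, 1190 bp from Zic2 and 8536 bp upstream of the Zic5 start. The other 2, of 160 and 219 bp, were inside the non-coding gene Gm5089. All 4 were DE-only. In EpiSC the pair had 1 peak, of 345 bp at 122416351 to 122416695, which was EpiSC-only and the widest EpiSC-only peak at any member. It lay 42637 bp from Zic5, and at 58.9 kb it was outside the window of Zic2.

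Sall2 (chromosome 14, 52311177 to 52328670) had 1 EpiSC peak, far from the gene and at the start of another. That peak, 205 bp at 52279221 to 52279425, was shared and overlapped the promoter of Rab2b, 31854 bp from Sall2. The DE peak it overlapped, of 251 bp, covered part of the promoters of both Rab2b and Tox4. The remaining DE peaks were of 76 bp over the Tox4 promoter and of 157 bp over the promoter of Mettl3, 6038 bp from Sall2. No peak of either state named Sall2 as its nearest gene in the authors' deposited tables.

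Utf1 (chromosome 7, 139943856 to 139945112) had the highest DE count per length among the 9 members, with 8.89 DE peaks per 100 kb of window. The median over all protein-coding genes was 2.23, and 2.64% of genes were at least as high. Of its 3 EpiSC peaks, the one closest to the gene was EpiSC-only: 147 bp at 139945618 to 139945764, with its centre 579 bp beyond the downstream end of Utf1. The nearest DE peak was 4062 bp away. At the start of Gm16201 the EpiSC peak of 139949856 to 139950031 (176 bp) lay wholly inside a DE peak of 139949827 to 139950039 (213 bp), over the second sequence printed above. From there, 4 DE-only peaks of 93 to 359 bp followed up to 139952487, so that 5 DE peaks had centres within 5 kb. Only 0.534% of protein-coding genes had as many in any 5 kb of their window. All but the last of these peaks, of 359 bp, lie under 500 bp from the one before. Joining peaks under 500 bp apart therefore leaves a single peak there beside the one of 359 bp. The third EpiSC peak, 174 bp at 139966958 to 139967131, was EpiSC-only, 8437 bp from a DE peak and inside Gm16201.

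**Figure D4:**
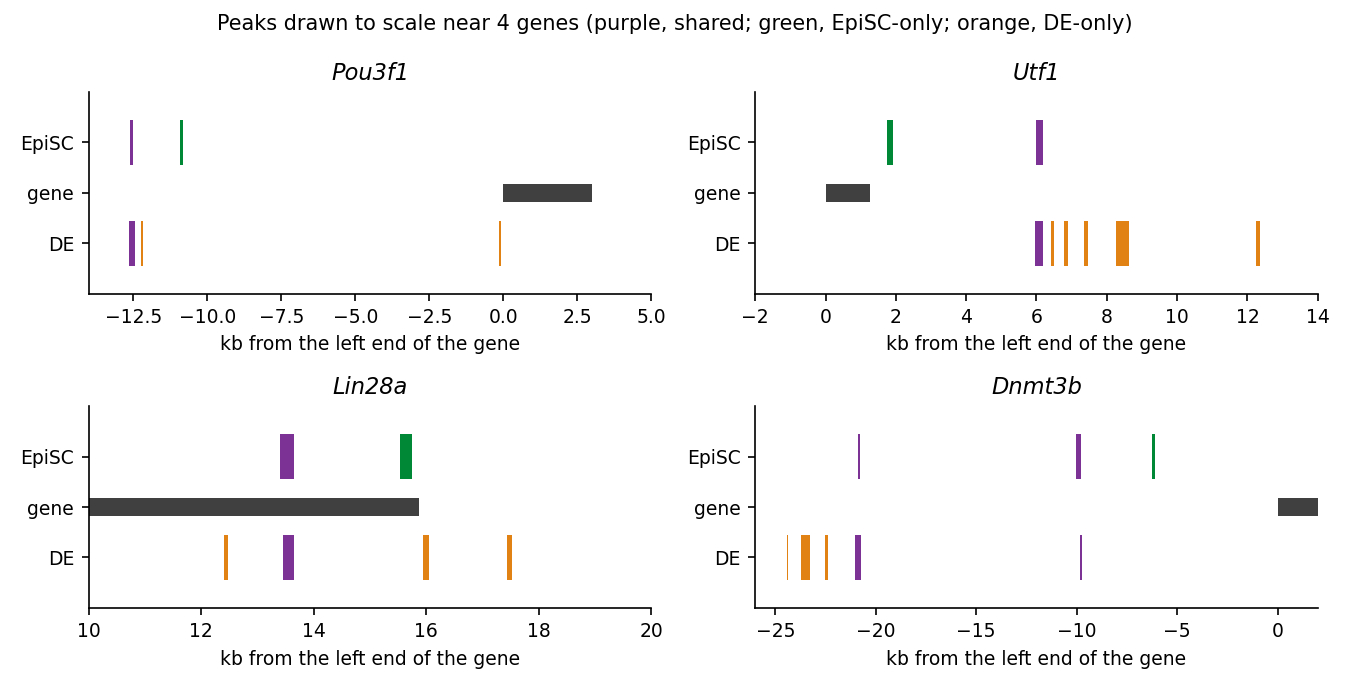
Peaks drawn to scale near Pou3f1, Utf1, Lin28a and Dnmt3b, by distance in kb from the left end of the gene, with EpiSC peaks above and DE peaks below the gene bar. Each gene has at least 1 EpiSC-only peak (green), and that at the start of Lin28a is 194 bp from a DE-only peak.

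The 2 de novo methyltransferase genes differed in their peaks. Dnmt3b (chromosome 2, 153649411 to 153687730) had all 3 EpiSC peaks and all 6 DE peaks upstream of its start, and none inside the gene. The EpiSC-only peak, 182 bp at 153643145 to 153643326, was the closest, 6214 bp upstream and 3482 bp from the nearest DE peak. A shared site 9934 bp upstream was 263 bp wide in EpiSC (153639384 to 153639646) and 74 bp in DE. The other shared site, 20891 bp upstream in Commd7, was 91 bp in EpiSC (153628513 to 153628603) and 303 bp in DE. Beside it were 3 DE-only peaks of 65, 446 and 162 bp, the 446 bp peak at 153625674 to 153626119 being the widest at any member. At Dnmt3b 4 DE peaks had centres within 5 kb, which 2.72% of protein-coding genes reached. Just past the limit was a DE-only peak of 203 bp, 53.4 kb from the gene.

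Dnmt3a (chromosome 12, 3801559 to 3914443) was bound in DE alone by these lists, with 9 DE-only peaks and none in EpiSC. The closest EpiSC peak was 69921 bp from any of them. Inside the gene were 6, of 65 to 339 bp, and 3 of them stood 6261, 3984 and 1596 bp upstream of the most downstream of its 3 tabulated starts (3891744), which is internal to the longest gene model. The 3 outside were 161, 213 and 172 bp wide, between 9610 and 14309 bp from the left end of the gene. Dnmt3a is long, at 112885 bp, and per 100 kb of window it had 4.23 DE peaks, close to the 4.34 of Dnmt3b. A DE peak with no EpiSC peak was found at 42.3% of protein-coding genes and at 3 of the 9 members (Dnmt3a, Zic2 and Lin28b).

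The 2 Lin28 genes also differed. Lin28a (chromosome 4, 134003330 to 134019196, minus strand) had 2 EpiSC peaks and 8 DE peaks. One site, 1963 bp downstream of the start within the gene, was shared, at 134016735 to 134016972 in EpiSC (238 bp) and 134016779 to 134016985 in DE (207 bp). Over the promoter printed above, which lies inside the gene span of the annotation, the EpiSC peak of 206 bp had no DE overlap, and a DE-only peak of 116 bp, at 134019262 to 134019377, began 194 bp beyond its upstream edge. A further DE-only peak of 83 bp was 1993 bp upstream, and one of 67 bp lay 3044 bp downstream of the start. The other 4 DE peaks were DE-only, 2 of them over the promoters of Hmgn2 and Dhdds.

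Lin28b (chromosome 10, 45376617 to 45486314) had the fewest peaks. The EpiSC list had none within 500 kb of its 2 DE peaks, whose gaps to an EpiSC peak were 545.5 and 689.5 kb. The DE peaks were 174 bp wide, at 45356583 to 45356756 inside Bves, and 107 bp wide, at 45500527 to 45500633, 30379 bp upstream of the tabulated start. Its DE density of 0.95 per 100 kb was below the median of all protein-coding genes, and 73.2% of genes were at least as high.

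Widths were the only value per peak. The median was 182 bp for the 13 EpiSC peaks (89 to 362 bp) and 153 bp for the 49 DE peaks (65 to 446 bp), beside 141 and 138 bp in the whole lists. EpiSC-only peaks ranged from 124 to 345 bp (median 178 bp) and the shared EpiSC peaks from 89 to 362 bp (median 205 bp), so the ranges overlapped. In the whole EpiSC list the medians were lower, at 125 bp for EpiSC-only and 147 bp for shared peaks. The DE-only peaks had a median of 140 bp and the shared DE peaks one of 229 bp, close to 129 and 224 bp in the whole list. Of the 7 overlapping pairs 4 were wider in DE, among them both sites at which the EpiSC peak was narrowest (Pou3f1 and Dnmt3b), while 78.7% of all overlapping pairs were wider in DE.

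**Figure D5:**
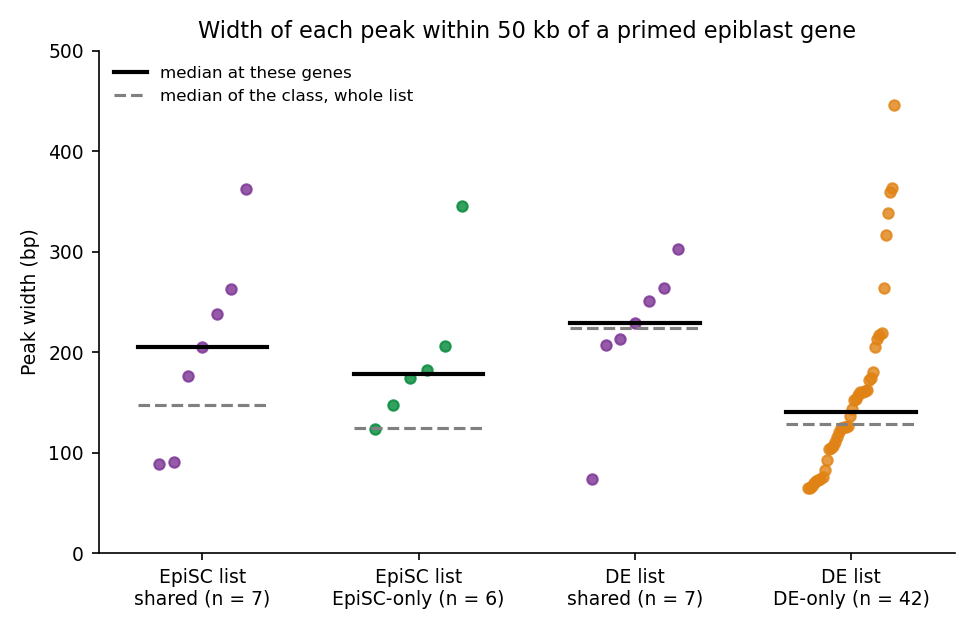
Width in bp of every peak within 50 kb of a primed epiblast gene, by list and class; solid lines are medians at these genes and dashed lines medians of the same class in the whole list. The 6 EpiSC-only peaks lie between 124 and 345 bp, inside the range of the 7 shared ones.

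Distances from unshared peaks to the closest peak of any class in the other state were also measured. For the EpiSC-only peaks the gap to the closest DE peak was 194 bp at Lin28a, 1233 bp at Pou3f1, 3482 bp at Dnmt3b, 4062 and 8437 bp at Utf1 and 13278 bp at Zic5. Thus 4 of 6 had a DE peak within 5 kb, against 37.2% of the 1339 EpiSC-only peaks of the whole list. Of the members' 42 DE-only peaks 12 lay within 5 kb of an EpiSC peak (28.6%), against 6.71% of all DE-only peaks. Both whole-list shares include peaks outside gene windows, and shares limited to gene windows were not computed. The differences can therefore not be put down to the members. The 12 DE-only peaks were at Utf1, Dnmt3b, Lin28a, Pou3f1 and Sall2.

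Position relative to the genes themselves was compared over all pairs of a gene and a peak in its window. Within 1 kb of an end of the member gene lay 2 of 13 EpiSC pairs (15.4%, at Lin28a and Utf1) and 2 of 53 DE pairs (3.77%, at Pou3f1 and Lin28a), where peaks of Zic2 and Zic5 count for both. For all protein-coding genes the numbers were 2639 of 18511 pairs in EpiSC (14.3%) and 8346 of 83473 pairs in DE (10%). The DE share depends on the distance chosen: within 5 kb of an end lay 10 of the 53 DE pairs at the members (18.9%), against 19.9% for all protein-coding genes, and 4 of the 13 EpiSC pairs (30.8%), against 24.4%. The lower DE share of the members within 1 kb was thus not seen at 5 kb. Both EpiSC peaks near a member's end were EpiSC-only and both DE peaks were DE-only. Inside the gene were 2 of the EpiSC pairs, both at Lin28a, and 9 of the DE pairs, 6 of them at Dnmt3a. These were 15.4% and 17.0% of the pairs, against 14.3% and 24.4% for all protein-coding genes. By the authors' deposited annotation 8 of the 13 EpiSC peaks and 37 of the 49 DE peaks in the windows are given to genes other than the members. Over all protein-coding genes, 15.3% are named as nearest in the EpiSC table and 50.4% in the DE table, compared with 4 and 5 of the 9 members.

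No control peak lay near these genes. The 3 IgG lists (202, 149 and 200 peaks) and the parental HA list (14 peaks) had none within 50 kb of a member, and the closest IgG peak was 692 kb away. Accordingly 0 of 13 EpiSC peaks and 0 of 49 DE peaks overlapped a control peak, which by 3 counts allows up to 23.1% and 6.12%. In the whole lists only 0.791% and 0.0819% did so, so 0 among so few peaks says little about background at these genes. Of the control lists only the parental one, with 14 peaks, is from DE. All 149 IgG intervals of replicate 2 recur in replicate 3, so those lists are not independent.

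Genes of the same families and other epiblast genes were counted in the same way. Of 11 genes listed as relatives 4 had an EpiSC peak and 10 a DE peak. The relatives were Pou3f2, Pou3f3, Pou3f4, Zic1, Zic4, Dnmt1, Dnmt3l, Sall1, Sall3, Sall4 and Trim71. Trim71 is a let-7 target that belongs to none of these families, and it is included in the counts. Sall4 had 6 EpiSC peaks, 5 of them shared, and 9 DE peaks. Dnmt1, the maintenance methyltransferase, had 3 and 7. Sall1 had 1 EpiSC and 9 DE peaks and Dnmt3l, a cofactor of the de novo enzymes, 1 and 2. Of 12 other epiblast genes (Fgf5, Otx2, Sox3, Foxd3, Tet1, Uhrf1, Etv4, Etv5, Tcf15, Grhl2, Cdh2 and Fst) 9 had an EpiSC peak and 10 a DE peak. Uhrf1, which brings DNMT1 to newly replicated DNA, had 4 EpiSC and 11 DE peaks, and Fgf5, a growth factor gene used as a marker of the primed epiblast, 4 and 8. All 4 EpiSC peaks at each of these were shared. Etv5 had 3 EpiSC and 6 DE peaks and Etv4 3 and 3. These are the genes with the most EpiSC peaks, and others in both lists, named after their values were seen, had DE peaks only: Trim71 had 11, Otx2 10 and Cdh2, a long gene, 16. Foxd3 had 1 EpiSC peak and no DE peak. The median gene had 1 EpiSC and 6 DE peaks among the members, 0 and 2 among the relatives, 1 and 5.5 among the other epiblast genes and 0 and 3 among all protein-coding genes.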

How the data were processed

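Peak positions of CUT&RUN for OTX2-HA were analysed in tagged EpiSCs and DE. Reads had been processed on mm10, and Bowtie2 2.3.5.1, SAMtools 1.14, Picard 2.26.10, bedtools 2.30 and MACS2 2.2.6 are named in the submitters' processing notes, without a role for each list. Peaks within 50 bp were merged by the authors, per the file names. The deposited HA lists give chromosome, start and end, for both replicates of a state together, and the tables with nearest genes hold the same intervals (6319 of 6319 and 42711 of 42711). The rule behind the nearest gene is not given in the sources used here. The label of EpiSC HA replicate 2 also names the DE list, and 1 IgG label of tagged DE points to HA peaks; both were read as slips. The columns on differential genes and signal tracks were not used here.

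Positions are printed from base 1. Genes came from NCBI RefSeq for GRCm38.p6, the assembly of mm10. The gene table has no strand, so transcript starts were taken from the promoter table where a member is in it, and gene ends were used otherwise. Members were matched by symbol (9 of 9). Counts used python 3.11.15 with pandas 2.3.3, numpy 2.4.6 and scipy 1.17.1, and the counting was checked on simulated intervals. Peaks in the windows of both Zic2 and Zic5 were counted once in sums. By plan the genes named were the members, the 4 genes of each of 2 further lists with the most EpiSC peaks, and the genes with the most similar counts for 3 members. Trim71, Otx2 and Cdh2, named after their values were seen, and Foxd3 were added outside that plan. 1 further gene of the list of relatives is not reported here and was left out of its counts. The members and lists were chosen with earlier results of these data known. Alternatives were other windows, overlap rules, distances and peak sets.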

Additional observations from a re-analysis of the deposited data

How the results depend on the processing

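No paired analysis was possible because each state has a single HA list for its 2 replicates, which also prevented leaving out an HA replicate. No control peak lay at a member, so leaving out an IgG replicate (added after seeing the data, 0 overlaps each time) or the peaks over control peaks could change nothing and shows nothing about stability. Over the other alternatives 85 values were computed, of which 69 stayed within 1.5 times (counts) or within the counting interval (shares and medians) and 16 moved. Some of the 69 could not move. The choices by peak width leave the EpiSC list whole, so its peak count, members, median width and share near a gene end are fixed there. A window of 10 kb left 6 EpiSC peaks at 3 members and 23 DE peaks, and one of 100 kb gave 74 DE peaks, since fewer or more bases are searched. Among the 6319 widest peaks of the DE list, 8 DE peaks with a median width of 328 bp were left, the ratio of DE to EpiSC peaks was 0.615, 15.4% of EpiSC peaks were shared and 0% of DE peaks lay within 1 kb of a member's end; this choice selects on width. Rows that name a member in the authors' deposited tables gave 5 EpiSC peaks, 20% of them shared, and 12 DE peaks at 5 members, with a median DE width of 111.5 bp and a ratio of 2.4. Counting up to 5 kb from a gene end raised the share of DE peaks to 20.4%, from 4.08% within 1 kb with each peak counted once. Depth limits every count and is unknown here.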

Other observations

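Genes outside the list with the same numbers of EpiSC, DE and shared EpiSC peaks within 50 kb were looked for over the 2 states. For Utf1 there were 4 such genes, and the closest in length was Adam8, a neighbour of Utf1 on chromosome 7 whose window overlaps that of Utf1. For Pou3f1 there were 29, with Ddah2 the closest in length, and for Dnmt3b 43, with Flacc1 the closest.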
